A study of Mus musculus with 12 samples.

Results

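The lysosome is kept acidic by the V-type proton pump, and its protein content is broken down there by proteases called cathepsins. The pump has a V1 domain, which splits ATP on the cytosolic side, and a V0 domain, which carries protons across the membrane, and the accessory proteins help to assemble and place it. The LAMP proteins are heavily glycosylated and line the lysosomal membrane. In the heart, lysosomes clear worn organelles, mitochondria among them, and loss of LAMP2 causes a cardiomyopathy in humans. Transcripts for this machinery were examined in hearts without the mitochondrial RNase P nuclease MRPP3. Genes were taken by name: every locus with a symbol of the pattern Atp6v0, Atp6v1 or Atp6ap, Cts followed by 1 letter, or Lamp1 to Lamp3. This gave 46 of the 44450 loci listed, of which 13 are V1 genes, 9 V0 genes, 3 accessory genes, 18 cathepsins and 3 LAMP genes. The pattern does not take Tcirg1, which encodes another V0 a subunit and is treated with the other lysosomal genes.

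The 3 knockout libraries came from hearts of 11-week-old C57BL/6N mice with the genotype Mrpp3 loxP/loxP, +/Ckmm, and the 3 control libraries from hearts of the same age and strain with the genotype Mrpp3 loxP/loxP. Both groups thus carry the loxP-flanked gene, and the Ckmm allele is present in the knockouts alone. The labels do not spell it out; it is taken to be a Cre recombinase under the control of the creatine kinase gene of muscle. The Cre transgene and the loss of the gene cannot be told apart. Cells other than muscle cells are outside that promoter's usual range. The values are FPKM (fragments scaled for transcript length and for the mapped fragments of the library) from total RNA after removal of cytoplasmic rRNA. Whether each library is a separate animal is not stated, and the p-values below weigh differences against the spread of these libraries, which may be technical.

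The targeted gene, Prorp (listed as 1110008L16Rik), had 0.441, 0.701 and 0.555 FPKM in the knockout libraries, against 3.49, 2.64 and 3.23 FPKM in the controls (limma adjusted p = 0.00063). The label of heart tissue was borne out by 7 cardiomyocyte markers, from 65.5 FPKM upward in every library. Of these, 6 fell in the knockout (85.7%, against 19.5% of all loci tested). The 7 markers summed to 7441 to 16103 FPKM in knockouts and 32277 to 37313 FPKM in controls. In bulk tissue, fewer cells of a type and less RNA per cell cannot be told apart. Knockout replicate 2 stood apart. Its 3 atrial markers summed to 3320 FPKM, against 118 and 3.44 FPKM in the other knockouts and 1.65 to 6.75 FPKM in controls, and its 5 erythroid markers to 21895 FPKM, against 622 and 2010 FPKM in the other knockouts and 1572 to 2902 FPKM in controls. The files give no read totals. Judged from the steps between the lowest values, the knockout libraries were 2.57, 2.06 and 2.19 times as deep as control replicate 1, and the other controls 1.32 and 1.35 times.

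Of the tested genes, 8 of 18 pump genes and 6 of 11 cathepsins rose in the knockout hearts, led by Ctsk, Atp6v1h and Ctsl at about 5-fold, and 1 cathepsin fell. The 2 expressed LAMP genes did not pass the test. Of the 46 loci, 31 reached 1 FPKM in at least 3 libraries and were tested, and 30 of these reached it in all 6 libraries. Of the 31, 14 were higher and 1 was lower in the knockout at a limma adjusted p under 0.05, which is 45.2% and 3.23%, against 16.1% higher and 19.5% lower (35.7% in either direction) over all 12181 loci tested. The remaining 16 did not pass. Every knockout library lay above every control for 18 of the 31 genes and below for 3, against 23.6% and 28.7% of all loci tested. The median log2 fold change of knockout over control was 0.46 over the 31 genes and -0.02 over all loci tested. All fold changes were taken after adding 0.5 FPKM to each value, so those of weakly expressed genes are understated.

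By class, 3 of 9 tested V1 genes, 4 of 7 V0 genes, 1 of 2 accessory genes and 6 of 11 cathepsins rose, and 1 cathepsin fell. Median log2 fold changes were 0.35 for V1, 0.49 for V0, 0.45 for the accessory genes, 0.57 for cathepsins and 0.24 for the LAMP genes. Single genes ranged from -0.72 (Ctsf) to 2.44 (Ctsk). Knockout replicate 3 was the highest of the knockout libraries for 24 of the 31 genes and knockout replicate 2 the lowest for 17. This order was not counted over all loci. The summed FPKM of all loci was also highest in knockout replicate 3 (516068) and lowest in knockout replicate 2 (456493) among the knockouts. When each library was scaled to the same summed FPKM, the median over all loci moved to 0.20 and the counts to 22 higher and 1 lower of 32 tested, against 24.8% higher and 10.7% lower over all loci. Without knockout replicate 2 the counts were 17 higher and 3 lower, against 16.5% and 20.2% of all loci. Without a control library 8 or 9 were higher and 1 lower, against 10.2 to 10.9% and 10.6 to 11.6% of all loci.

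**Figure D1:**
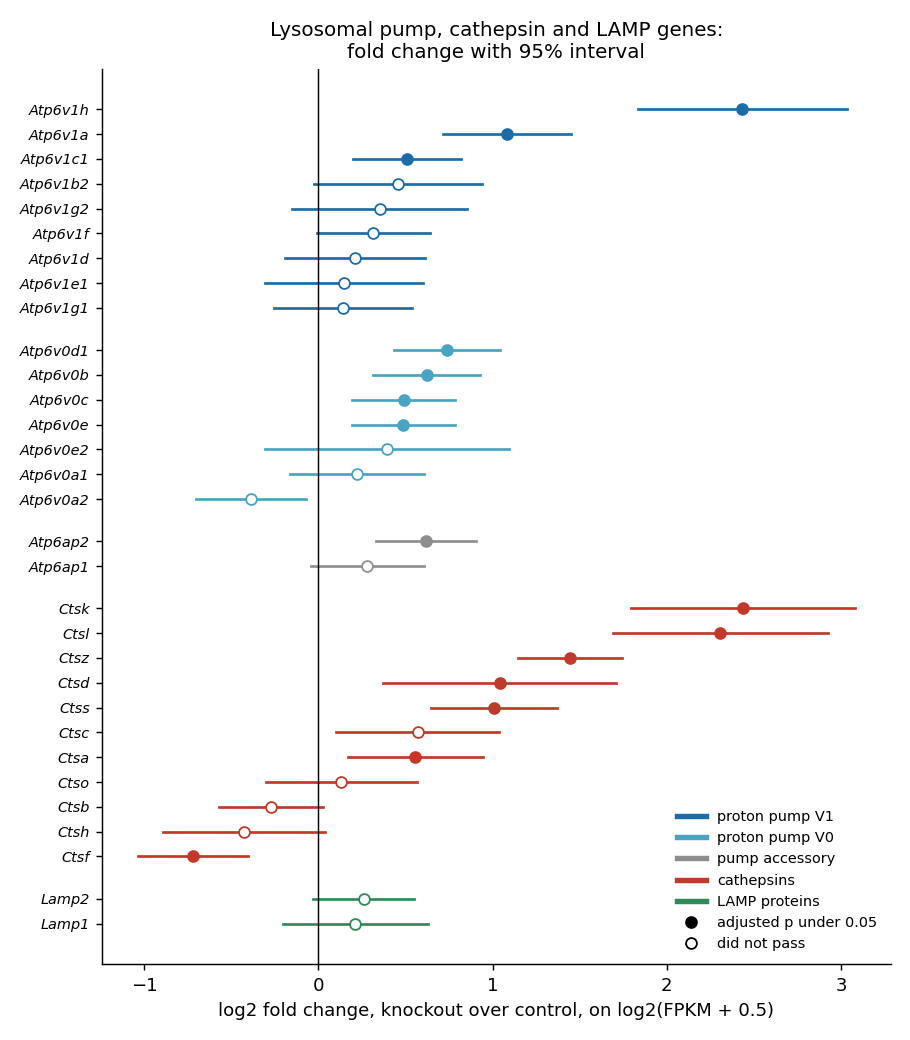
Log2 fold change, knockout over control, after adding 0.5 FPKM (x axis) for the 31 tested genes, with 95% intervals from the limma fit, coloured by class; filled points passed the test over all loci and open points did not. Atp6v1h, Ctsk and Ctsl lie furthest to the right at 2.43, 2.44 and 2.31, and Ctsf is the filled point left of 0 at -0.72.

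Many genes of lysosomal proteins carry an E-box with the letters TCACGTG near their start, the core of the element that the transcription factor TFEB and its relatives bind. RefSeq promoter windows (GRCm38.p6, 250 bases before to 50 after the start) were found for 24 of the 31 tested genes and searched on both strands for CACGTG and for the longer TCACGTG, which contains it. Atp6v0a2, Atp6v1b2, Atp6v1c1, Atp6v1g1, Atp6v1h, Ctsb and Ctsh had no entry. TCACGTG was found for 7 of the 24 genes (29.2%), a gene counting if any of its windows held it. The share was 7.10% of the 8855 genes of all tested loci with an entry and 4.29% of all 27025 genes with an entry. The 7 were Atp6v0b, Atp6v0d1, Atp6v0e, Atp6v1a, Ctsa, Ctsd and Lamp1. So 6 of the 12 genes that rose and had an entry held it, against 1 of the 12 that did not rise. Over all loci, 8.36% of the genes that rose and 5.91% of those that fell held it. The members that rose without TCACGTG were Atp6ap2, Atp6v0c, Ctsk, Ctsl, Ctss and Ctsz. The calls of Atp6v0b, Atp6v0e, Ctsa and Ctsd were lost with some libraries left out. Lamp1 passed when libraries were scaled to the same sum. Whether the site goes with the rise was not tested. The shorter CACGTG was found in addition for Ctsl and for Ctsf, hence for 9 of the 24 genes (37.5%). It stands in 12.1% of the genes of all tested loci and 8.09% of all genes with an entry, those with TCACGTG included. The 5 stretches below, each the 140 bases before the start of transcription (for Ctsa the downstream of its 2 starts), show how the sites are placed, with TCACGTG or its complement in capitals.
Atp6v0b, chr4:117887330-117887469, minus strand: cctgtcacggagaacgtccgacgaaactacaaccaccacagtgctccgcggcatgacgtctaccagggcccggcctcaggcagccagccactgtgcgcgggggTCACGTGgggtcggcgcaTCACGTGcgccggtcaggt
Atp6v1a, chr16:44139260-44139399, minus strand: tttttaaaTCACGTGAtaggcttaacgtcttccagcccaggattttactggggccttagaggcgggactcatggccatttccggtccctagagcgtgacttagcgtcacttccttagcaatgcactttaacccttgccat
Ctsa, chr2:164833633-164833772, plus strand: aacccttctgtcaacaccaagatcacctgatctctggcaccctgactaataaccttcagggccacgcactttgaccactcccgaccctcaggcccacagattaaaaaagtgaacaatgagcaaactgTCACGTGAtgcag
Ctsd, chr7:142387828-142387967, minus strand: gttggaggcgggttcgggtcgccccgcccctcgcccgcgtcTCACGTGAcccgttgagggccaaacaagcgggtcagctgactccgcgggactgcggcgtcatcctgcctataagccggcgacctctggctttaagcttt
Lamp1, chr8:13159021-13159160, plus strand: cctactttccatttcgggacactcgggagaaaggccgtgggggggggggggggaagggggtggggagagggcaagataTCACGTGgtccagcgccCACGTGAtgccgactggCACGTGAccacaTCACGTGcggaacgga
In these stretches Atp6v0b has 2 separate sites and Lamp1 has 4, while the site of Atp6v1a, Ctsa and Ctsd reads the same on both strands. Lamp1, with the most sites of the 5, did not pass the test. A match is a description of letters and does not show binding.

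Among the V1 genes, Atp6v1h changed most. It encodes the H subunit, which couples the V1 and V0 domains and keeps detached V1 from splitting ATP. Atp6v1h, on chromosome 1 from 5082978 to 5163213 (GRCm38), had 61.2, 38.5 and 83.3 FPKM in knockouts, against 10.1, 10.2 and 10.7 FPKM in controls. The groups were far apart, and the knockout libraries differed among themselves by more than the controls did. The log2 fold change was 2.43 (SE 0.26, limma adjusted p = 0.00079), a 5.40-fold rise. In controls the level of Atp6v1h was 0.663 ± 0.0105 times that of Atp6v0d1, and in knockouts 2.26 ± 0.605 times (SD, n = 3 each).

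Atp6v1a encodes the catalytic A subunit that splits ATP. It had 16.7, 12.7 and 18.02 FPKM in knockouts, against 6.40, 7.69 and 7.35 FPKM in controls, with no overlap (log2 fold change 1.08, SE 0.16, limma adjusted p = 0.0025). Its partner in the catalytic ring, the B subunit gene Atp6v1b2, had 34.0, 22.9 and 40.9 FPKM in knockouts and 23.1, 23.8 and 22.0 FPKM in controls. Knockout replicate 2 lay among the controls, and the gene did not pass (log2 fold change 0.46, 95% interval -0.02 to 0.94, limma adjusted p = 0.12). It passed without that library (0.69, adjusted p = 0.0059). Atp6v1c1, for the C subunit of the stalk that holds the 2 domains together, had 24.7, 24.0 and 30.2 FPKM in knockouts, against 16.8, 18.3 and 19.8 FPKM in controls (log2 fold change 0.51, SE 0.13, limma adjusted p = 0.023). That call was lost without control replicate 1, 2 or 3 (adjusted p = 0.091, 0.082 and 0.051).

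The other V1 genes did not pass. Atp6v1e1 and Atp6v1g1, for stalk subunits, were among the most abundant pump transcripts, at 71.8 ± 18.4 and 66.5 ± 14.1 FPKM in knockouts and 63.5 ± 4.80 and 59.3 ± 1.63 FPKM in controls. Their log2 fold changes were 0.15 (95% interval -0.31 to 0.60) and 0.14 (-0.25 to 0.54), which were -0.04 and -0.01 without knockout replicate 3. Atp6v1d and Atp6v1f, for the rotor, had log2 fold changes of 0.21 and 0.32 (limma adjusted p = 0.37 and 0.12). Atp6v1d passed without knockout replicate 2 (adjusted p = 0.044). Atp6v1g2, a G subunit known mainly from brain, was low at 1.66 ± 0.364 FPKM in knockouts and 1.20 ± 0.362 FPKM in controls.

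**Figure D2:**
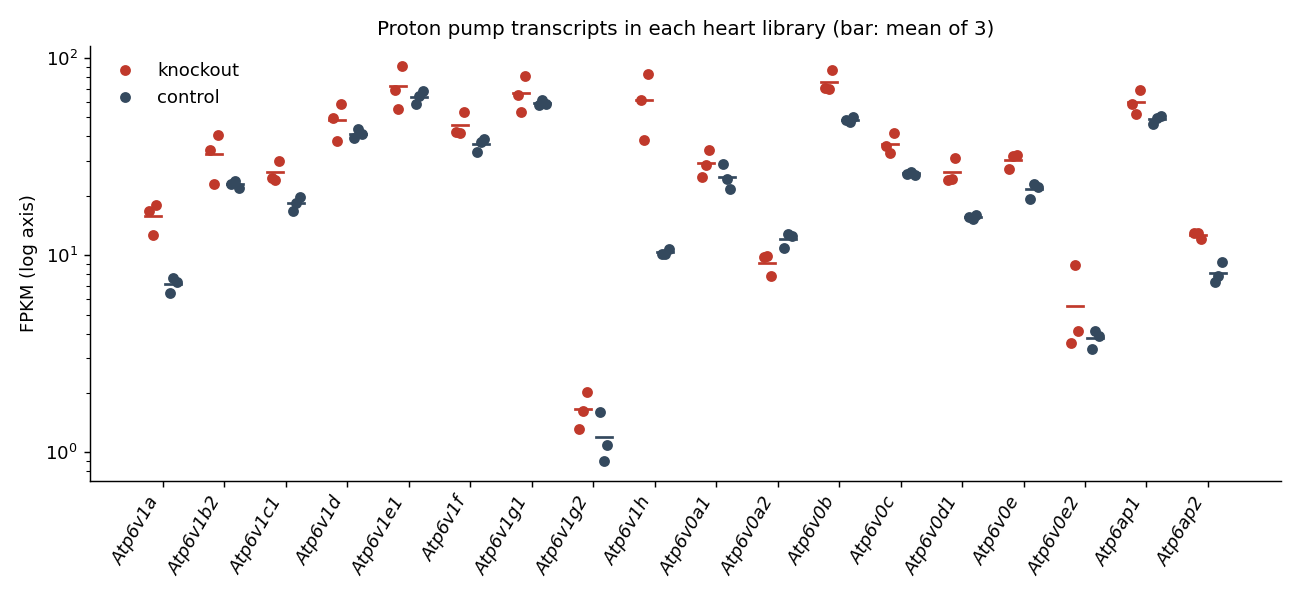
FPKM on a log axis for the 18 tested pump genes in each library, with knockouts in red left of controls in dark blue; each point is 1 library and each bar the mean of 3. The Atp6v1h groups lie furthest apart, while those of Atp6v1d, Atp6v1e1 and Atp6v1g1 overlap.

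In the V0 domain, the genes of the proton-carrying ring and of its central stalk attachment rose together by smaller amounts. Atp6v0d1, for the d subunit on which the rotor stands, had 24.2, 24.5 and 31.0 FPKM in knockouts, against 15.6, 15.2 and 16.03 FPKM in controls (log2 fold change 0.74, SE 0.13, limma adjusted p = 0.0051). Atp6v0b, for the ring's c'' subunit, had 70.4, 70.1 and 86.6 FPKM in knockouts, against 48.2, 47.6 and 50.4 FPKM in controls (log2 fold change 0.62, SE 0.13, limma adjusted p = 0.010). The locus of Atp6v0c, the c subunit, also carries the names Tbc1d24 and RP23-27H19.7, so its value may be shared. It had 35.9, 32.8 and 41.8 FPKM in knockouts, against 25.9, 26.4 and 25.6 FPKM in controls (limma adjusted p = 0.021). For these 3 genes every knockout library lay above every control.

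Atp6v0e, a small subunit of the V0 domain, had 27.3, 31.7 and 32.3 FPKM in knockouts, against 19.4, 23.0 and 22.2 FPKM in controls (log2 fold change 0.49, SE 0.13, limma adjusted p = 0.022). Several of the V0 calls rest on the number of libraries. Atp6v0b was lost without control replicate 2 (adjusted p = 0.056). Atp6v0e was lost without control replicate 1, 2 or 3 (0.091, 0.060 and 0.065). Atp6v0c was lost without knockout replicate 1 (0.052) and without control replicate 1, 2 or 3 (0.075, 0.078 and 0.080). Atp6v0e2, the paralog of Atp6v0e, did not pass, and its 8.88 FPKM in knockout replicate 2 stood above 3.58 and 4.12 FPKM in the other knockouts and 3.33 to 4.14 FPKM in controls.

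The a subunit exists as paralogs that place the pump on different membranes. Atp6v0a1, the most abundant of them here, had 25.0, 28.8 and 34.1 FPKM in knockouts and 29.2, 24.4 and 21.7 FPKM in controls, with overlapping groups (limma adjusted p = 0.32). Atp6v0a2, known from the Golgi and endosomes, had 9.76, 9.95 and 7.82 FPKM in knockouts, against 10.9, 12.9 and 12.5 FPKM in controls. Every knockout lay below every control, with a log2 fold change of -0.39 that did not pass (95% interval -0.70 to -0.07, limma adjusted p = 0.060). It passed without knockout replicate 2 (adjusted p = 0.046). Atp6v0a1 made up 74.2 ± 5.40% of the summed FPKM of Atp6v0a1, Atp6v0a2 and Atp6v0a4 in knockouts and 66.7 ± 4.76% in controls (SD, n = 3 each). The groups overlapped, with 69.9, 72.4 and 80.2% in knockouts and 72.1, 65.1 and 63.0% in controls. Tcirg1, for another a subunit, is not in this sum.

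Of the accessory genes, Atp6ap2, which encodes the (pro)renin receptor, rose. It had 12.9, 13.002 and 12.1 FPKM in knockouts, against 7.34, 7.80 and 9.24 FPKM in controls (log2 fold change 0.62, SE 0.12, limma adjusted p = 0.0081). Atp6ap1, for the pump's Ac45 subunit, was more abundant at 58.6, 52.2 and 69.0 FPKM in knockouts and 46.5, 49.4 and 51.0 FPKM in controls. Its groups did not overlap, but it did not pass (log2 fold change 0.28, 95% interval -0.04 to 0.60, limma adjusted p = 0.15). It passed without knockout replicate 2 (adjusted p = 0.043).

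Pump paralogs known mainly from other tissues were low or at 0. Atp6v1b1, Atp6v1e2 and Atp6v1g3 were listed at 0 in all libraries, and Atp6v1c2 and Atp6v0d2 stayed under 0.1 FPKM. The locus of Atp6v0a4, which also carries the name D630045J12Rik, had 1.02, 1.03 and 0.580 FPKM in knockouts and 0.362, 0.182 and 0.198 FPKM in controls. Every knockout lay above every control, but it was too low for the filter, so no test is given. Atp6ap1l was at 0, 0 and 0.0670 FPKM in knockouts and at 0.576, 0.332 and 0.158 FPKM in controls.

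Among the cathepsins, Ctsl and Ctsk changed most. Ctsl encodes cathepsin L, a cysteine protease with broad activity in lysosomes, and mice without it develop a dilated cardiomyopathy. It lies on chromosome 13 from 64361890 to 64370772. Ctsl had 200 FPKM in knockout replicate 1, 284 in replicate 2 and 432 in replicate 3, against 57.3, 58.5 and 59.3 FPKM in controls. The lowest knockout stood over 3 times above the highest control (log2 fold change 2.31, SE 0.26, limma adjusted p = 0.0010). Ctsk, for cathepsin K, a collagen-cutting protease best known from osteoclasts, had 6.94, 10.7 and 14.4 FPKM in knockouts, against 1.06, 1.56 and 1.93 FPKM in controls (log2 fold change 2.44, SE 0.27, limma adjusted p = 0.00098). How close Ctsk, at a far lower level, came to the 2.31 of Ctsl depended on the FPKM added to each value. On the log2 scale, Ctsk rose by 2.71 and Ctsl by 2.31 when 0.1 FPKM was added. Adding 1 FPKM gave 2.18 for Ctsk and 2.30 for Ctsl.

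Ctsz, for cathepsin Z, a carboxypeptidase, had 30.2, 24.0 and 29.6 FPKM in knockouts, against 10.2, 9.39 and 10.1 FPKM in controls (log2 fold change 1.45, SE 0.13, limma adjusted p = 0.00048). Ctss, for cathepsin S, which trims the invariant chain in antigen-presenting cells, had 17.2, 19.3 and 21.0 FPKM in knockouts, against 8.58, 11.3 and 8.10 FPKM in controls (log2 fold change 1.01, SE 0.15, limma adjusted p = 0.0031). Ctss lies next to Ctsk on chromosome 3, at 95526786 to 95556405 and 95499210 to 95509387. The groups of both Ctsz and Ctss were separate and their knockout libraries close together.

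Ctsd encodes cathepsin D, the main aspartic protease of lysosomes, and was the most abundant cathepsin. Its locus also carries Ifitm10, so its value may be shared. It had 832, 588 and 1272 FPKM in knockouts, against 394, 425 and 426 FPKM in controls (log2 fold change 1.04, SE 0.29, limma adjusted p = 0.027). The groups were separate, but the call was lost without knockout replicate 1 (adjusted p = 0.067) and without control replicate 1, 2 or 3 (0.082, 0.084 and 0.077). Ctsa, for the serine carboxypeptidase that shields lysosomal neuraminidase and beta-galactosidase, had 62.4, 59.4 and 83.9 FPKM in knockouts, against 41.1, 47.0 and 49.9 FPKM in controls (log2 fold change 0.56, SE 0.17, limma adjusted p = 0.036). Its call was lost without any 1 library other than knockout replicate 2, with adjusted p-values of 0.055 to 0.13.

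Ctsf was the 1 gene of the 31 that fell. It encodes cathepsin F, a cysteine protease, and had 10.6, 8.94 and 12.3 FPKM in knockouts, against 17.9, 17.4 and 17.6 FPKM in controls (log2 fold change -0.72, SE 0.14, limma adjusted p = 0.0066). Ctsb, for cathepsin B, had 62.5, 52.5 and 63.4 FPKM in knockouts and 68.5, 72.9 and 73.5 FPKM in controls. Its groups did not overlap, but it did not pass (log2 fold change -0.27, 95% interval -0.57 to 0.03, limma adjusted p = 0.14). Ctsh, for the aminopeptidase cathepsin H, had 12.9, 18.9 and 14.0 FPKM in knockouts and 25.4, 19.8 and 16.9 FPKM in controls (limma adjusted p = 0.13), and passed with knockout replicate 2 left out (-0.59, adjusted p = 0.041).

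Ctsc, for the dipeptidase that activates granule proteases of immune cells, had 16.2, 28.6 and 23.1 FPKM in knockouts, against 13.8, 15.0 and 15.4 FPKM in controls. It did not pass (log2 fold change 0.57, 95% interval 0.10 to 1.04, limma adjusted p = 0.060), but passed without knockout replicate 1 (adjusted p = 0.013). Ctso had 4.14 ± 1.07 FPKM in knockouts and 3.68 ± 0.475 FPKM in controls (SD, n = 3 each). The other 7 cathepsins were under the filter, with no value above 0.642 FPKM. Ctsj, Ctsm, Ctsq and Ctsr, which mouse placenta expresses, were listed at 0 throughout, as was Ctsg, the serine protease of neutrophil granules.

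**Figure D3:**
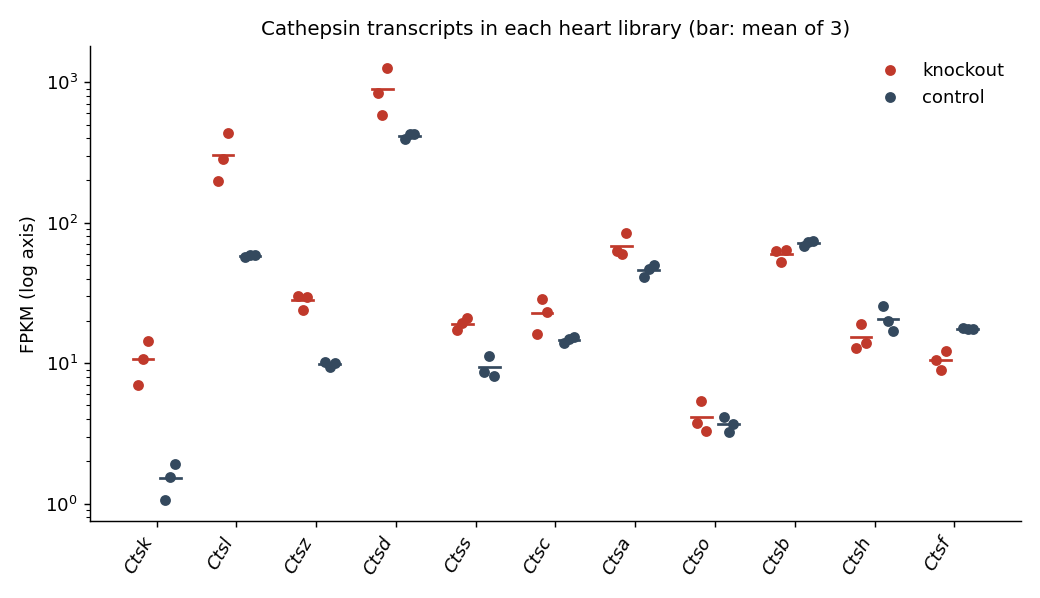
FPKM on a log axis for the 11 tested cathepsin genes, ordered by fold change, with knockouts in red left of controls in dark blue; each point is 1 library and each bar the mean of 3. Ctsk and Ctsl at the left are furthest above their controls, and Ctsf at the right lies below, with knockouts at 8.94 to 12.3 FPKM and controls at 17.4 to 17.9 FPKM.

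The mix of cathepsin transcripts differed as well as their sum. The 18 genes summed to 1255, 1100.5 and 1970.0 FPKM in knockouts, against 642, 681 and 683 FPKM in controls. Ctsl made up 21.2 ± 4.99% of this sum in knockouts and 8.73 ± 0.173% in controls, and Ctsb 4.32 ± 0.963% in knockouts and 10.7 ± 0.0497% in controls (SD, n = 3 each). The Ctsd locus made up 61.4 ± 7.00% in knockouts and 62.0 ± 0.619% in controls. With the Ctsd locus left out, Ctsl made up 47.2, 55.4 and 62.0% in knockouts, against 23.1, 22.8 and 23.1% in controls. So Ctsl stood above Ctsb in every knockout and below it in every control.

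**Figure D4:**
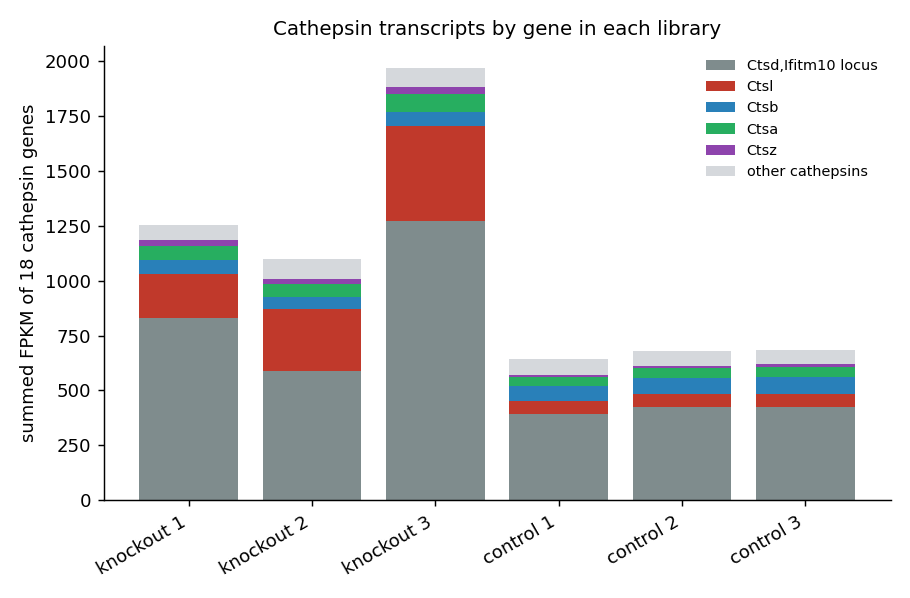
Summed FPKM of the 18 cathepsin genes in each library, stacked by gene, with the knockouts at the left and the controls at the right. The knockout bars reach 1255, 1100.5 and 1970.0 FPKM and the control bars 642, 681 and 683 FPKM, with a wider Ctsl layer in the knockouts.

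Neither of the 2 LAMP genes tested passed, and whether they differed from the pump genes or the cathepsins was not tested. Lamp1 had 129, 126 and 184 FPKM in knockouts and 121, 129 and 123 FPKM in controls, with overlap (log2 fold change 0.21, 95% interval -0.20 to 0.63, limma adjusted p = 0.38). Lamp2 had 58.0, 61.0 and 70.3 FPKM in knockouts and 52.7, 50.7 and 53.9 FPKM in controls, without overlap (log2 fold change 0.26, 95% interval -0.03 to 0.55, limma adjusted p = 0.14). Both passed when libraries were scaled to the same sum (0.44 and 0.49, adjusted p = 0.045 and 0.012). Without knockout replicate 3, the log2 fold change of Lamp1 was 0.036 and the median of both genes 0.11. Lamp3, known from dendritic cells, was listed at 0 in all but knockout replicate 3, where it had 0.0129 FPKM.

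Macrophages are rich in lysosomes, and Ctss, Ctsz and Ctsk are made there too. Of 20 listed macrophage markers, 14 rose (70%, against 16.1% of all loci) and 0 fell, with a median log2 fold change of 0.79, and their summed levels were 294 to 339 FPKM in knockouts, against 195 to 208 FPKM in controls. None of them was at 0 in all libraries. Cd68, itself a lysosomal membrane protein of macrophages, had 8.03, 7.25 and 6.71 FPKM in knockouts, against 3.76, 3.22 and 3.31 FPKM in controls, and Trem2 had 2.02, 3.08 and 2.41 FPKM in knockouts, against 0.503, 0.440 and 0.360 FPKM in controls. Of 6 fibroblast markers, the collagen genes Col1a1, Col1a2 and Col3a1 rose (50%, against 16.1% of all loci). Dcn (log2 fold change -0.31, every knockout below every control), Pdgfra (-0.26) and Lum (0.63) did not pass. The 6 markers summed to 333 to 567 FPKM in knockouts and 323 to 398 FPKM in controls. The part of these cell types in the cathepsin and pump changes was not tested. The 4 mast cell markers summed to 2.42 to 7.29 FPKM in knockouts, above the 0.663 to 1.79 FPKM in controls. All 4 were too low for the filter, so no test is given. Singly, the groups overlapped for Mcpt4 and Tpsb2 but not for Cma1 and Cpa3. The 7 T and NK cell markers were under 1 FPKM in every library, and the 9 neutrophil markers summed to 1.15 to 10.53 FPKM in knockouts and 1.76 to 3.37 FPKM in controls. The 6 B and antigen-presenting cell markers summed to 80.2 to 142 FPKM in knockouts and 70.7 to 111 FPKM in controls, and the 4 endothelial markers to 129 to 159 FPKM in knockouts and 144 to 161 FPKM in controls.

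Other lysosomal genes are read against the 16.1% of all loci that rose and the 19.5% that fell. Of 41 tested hydrolases and their activators, 13 rose (31.7%) and 5 fell (12.2%), with a median log2 fold change of 0.29. Scpep1, a serine carboxypeptidase, had 19.6, 19.3 and 24.4 FPKM in knockouts, against 5.75, 4.90 and 5.16 FPKM in controls (log2 fold change 1.90, SE 0.13, limma adjusted p = 0.00024). Man2b2, a mannosidase, and Naglu, which removes N-acetylglucosamine from heparan sulfate, rose by 1.32 and 0.96 on the log2 scale. Fuca2, a fucosidase, fell to 40.9 ± 7.88 FPKM in knockouts, against 78.9 ± 11.8 FPKM in controls.

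Of 25 other lysosomal membrane genes, 4 rose (16%) and 2 fell (8%), so the share that rose was close to that over all loci. Cd63, a tetraspanin of late endosomes and lysosomes, rose most, with 52.6, 45.2 and 64.2 FPKM in knockouts and 19.1, 14.3 and 14.9 FPKM in controls (log2 fold change 1.71, SE 0.17, limma adjusted p = 7e-04). Laptm5, made in blood cells, and Tmem192 rose by 0.96 and 0.92, and Mfsd8 fell by 0.60. Of 10 genes for sorting enzymes to lysosomes, 1 rose (10%) and 0 fell. The gene that rose was Grn (progranulin), with 41.0, 56.6 and 105 FPKM in knockouts and 25.7, 19.5 and 16.9 FPKM in controls. Of 9 pump assembly and related genes, 1 rose (11.1%) and 1 fell (11.1%). Dmxl2 rose by 1.11 and Dmxl1, its paralog, fell by 0.54 on the log2 scale. The Dmxl1 call was lost when libraries were scaled to the same sum (-0.33, adjusted p = 0.067). Both encode rabconnectin-3 proteins that bind the pump. Tcirg1, named after its values were seen, did not pass, with 8.13, 9.44 and 6.46 FPKM in knockouts and 5.46, 6.50 and 5.68 FPKM in controls (limma adjusted p = 0.083).

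Of 17 tested genes for the TFEB family and its nutrient-sensing regulators, 1 rose (5.88%) and 2 fell (11.8%), against 16.1% and 19.5% over all loci. With 17 genes these shares rest on few calls, and their difference from all loci was not tested. Mitf, a relative of TFEB, fell to 11.2, 7.90 and 9.07 FPKM in knockouts, against 27.4, 26.5 and 28.9 FPKM in controls (log2 fold change -1.52, SE 0.14, limma adjusted p = 0.00055). Rragc, for a Rag GTPase, rose by 0.67 and Flcn, for folliculin, fell by 0.52 on the log2 scale, the last of which was lost when libraries were scaled to the same sum (adjusted p = 0.11). Tfeb and Tfe3, named after their values were seen, did not pass. Tfeb had 9.13, 8.97 and 5.82 FPKM in knockouts and 10.7, 11.6 and 12.7 FPKM in controls (limma adjusted p = 0.053), and Tfe3 had 4.80, 7.38 and 6.28 FPKM in knockouts and 4.89, 3.90 and 3.65 FPKM in controls (limma adjusted p = 0.063). FPKM give RNA levels, and the place of these factors in the cell was not measured.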

How the data were processed

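Total RNA libraries were made from hearts by the TruSeq protocol with random hexamers and Ribo-Zero, per the labels' protocols. The deposited values are FPKM per locus, with 1 file for each of the 6 libraries, per the file headers. The submitters' processing notes name HISAT 0.1.6, StringTie 1.1.0, Cufflinks 2.2.1, Cuffdiff and HISAT2 2.0.1, among other tools, and the build GRCm38 (mm10). Settings, use of strand and any scaling between libraries are not stated. The 6 PARE libraries of the series were not analysed here.

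Groups were read from the source names. Loci that reached 1 FPKM in 3 or more libraries (12181) were taken as log2(FPKM + 0.5) and fitted with limma 3.58.1 in R 4.3.3 (moderated by empirical Bayes along the intensity trend; two-sided tests). P-values were Benjamini-Hochberg adjusted over all these loci, with a threshold of 0.05. The code was tested on simulated data. Relative depth was read from the most frequent ratio of low values at 372 to 425 loci of pseudogenes and small RNAs. Only 72 to 95 of these loci lay at that ratio. Whole reads were not recovered and counting error is unknown. Coordinates and promoters come from RefSeq (GRCm38.p6).

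The members and the 16 lists of other genes were chosen with earlier results of these data known. Every member is accounted for. From each list of other lysosomal genes up to 4 genes past the threshold with the largest change are named. Alternatives were pseudocounts of 0.1 and 1, no filter, 2 scalings, array weights, a replicate block and each library left out.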

Additional observations from a re-analysis of the deposited data

How the results depend on the processing

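Of the 15 calls among the members, 9 held under all 13 alternatives: Atp6v1h, Atp6v1a, Atp6v0d1, Atp6ap2, Ctsk, Ctsl, Ctsz, Ctss and Ctsf. The other 6 were lost with some libraries left out, as given with each gene. Ctsa and Ctsd were also lost with no filter (adjusted p = 0.058 and 0.071). With 1 library left out, 8 to 17 members were higher and 1 to 3 lower. Array weights gave 16 higher and 3 lower, against 23.5% and 27.6% of all loci. No filter gave 13 higher and 2 lower of 38 tested, against 8% and 9.45% of all loci, and added Atp6v0a4 and Atp6ap1l. With each library scaled to one sum, 22 were higher, and class medians were 0.59 (V1), 0.72 (V0), 0.68 (accessory), 0.80 (cathepsins) and 0.47 (LAMP). The V0 median was 0.35 with array weights. These shifts follow the scaling or weighting, and their cause was not tested further. With 1 library left out, log2 fold changes ran from -0.041 to 0.32 for Atp6v1e1 and from -0.012 to 0.29 for Atp6v1g1, both lowest without knockout replicate 3, and from -0.046 to 0.26 for Ctso, lowest without knockout replicate 2. Same-numbered libraries did not deviate together (correlations -0.08, -0.06 and -0.01). With 3 libraries a group this cannot exclude a pairing, and whether the numbers pair the libraries is not known. With the replicate block 13 members were higher and 1 lower, against 12.6% and 14.8% of all loci, with Atp6v0c lost (adjusted p = 0.058). Depth, as judged from the low values, was higher in the knockouts, which bears on members listed near 0 in controls.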

Other observations

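The inhibitors of cathepsins did not move together. Cystatin C (Cst3), the abundant secreted inhibitor of cysteine cathepsins, had 297, 268 and 343 FPKM in knockouts and 345, 354 and 391 FPKM in controls, and did not pass the test (limma adjusted p = 0.24). Cystatin B (Cstb), which acts inside the cell, had 48.8, 50.7 and 85.2 FPKM in knockouts, against 12.0, 10.8 and 14.4 FPKM in controls (log2 fold change 2.23, SE 0.23, limma adjusted p = 0.00074). Of the serpins on the same list, Serpina3n and Serpinb6a rose by 2.08 and 1.12 on the log2 scale. Which proteases these serpins act on was not examined. In all, 3 of the 4 tested genes on the list rose (75%, against 16.1% of all loci).

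The cysteine cathepsins (Ctsb, Ctsc, Ctsf, Ctsh, Ctsk, Ctsl, Ctso, Ctss, Ctsw and Ctsz) summed to 360, 453 and 614 FPKM in knockouts, against 207, 209 and 207 FPKM in controls. Cst3 and Cstb summed to 345, 319 and 428 FPKM in knockouts, against 357, 365 and 405 FPKM in controls. The ratio of these sums was 1.299 ± 0.222 in knockouts and 0.555 ± 0.0388 in controls (SD, n = 3 each). The ratio of Ctsl to Cst3 was 0.673, 1.06 and 1.26 in knockouts, against 0.166, 0.165 and 0.152 in controls. These ratios were formed after the values were seen and compare RNA levels per length, not protein.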
